A study of Mus musculus with 18 samples.

Results

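The transcripts described here are those of 10 genes of the endoplasmic reticulum (ER): the chaperones and folding factors Hspa5, Hsp90b1, Calr, Pdia4, Sdf2l1, Creld2 and Dnajb9, the degradation factors Herpud1 and Edem1, and the transcription factor Xbp1. They were chosen by symbol as ER chaperones and as targets of the transcription factors XBP1 and ATF6 and make up 10 of 18668 rows of the table. Levels are RPKM, which correct read numbers for gene length and for library depth. All 10 lay far above the filter on low values and were tested among 12838 genes.

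Bone marrow-derived macrophages (BMDM) were grown from marrow of C57BL6 mice with M-CSF, the growth factor of the macrophage lineage. The mice lacked Apoe, the apolipoprotein that clears remnant lipoproteins from blood (Apoe-/-), or both Apoe and the myeloid receptor Treml4 (Apoe-/-/Treml4-/-, DKO), so that every group lacked Apoe and no wild-type cells were included. Cells of each genotype received PBS (untreated) or oxidized LDL, a modified lipoprotein that macrophages take up as they turn into foam cells, at 10 or 60 µg/ml (oxLDL 10 and oxLDL 60), with 3 biological replicates in each of the 6 groups. The exposure was 16 h per the series description, while the study's methods give a longer time, and a treatment label speaks of LPS in place of oxLDL. The age of the mice was not given in the sources used here.

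The ER folds secreted and membrane proteins, and unfolded chains that build up in it set off the unfolded protein response (UPR). Sensors of 3 kinds span the ER membrane. IRE1 splices the Xbp1 mRNA into its active form, ATF6 is cut in the Golgi to release a transcription factor, and PERK slows translation while favouring that of ATF4. XBP1 and ATF6 raise chaperones and the factors of ER-associated degradation (ERAD), which sends misfolded proteins back to the cytosol. In macrophages loaded with lipid or free cholesterol, the UPR is known as one of the stress responses of the foam cell. RPKM per gene do not show splicing, so the active form of Xbp1 cannot be told from the inactive one here.

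Promoters of UPR targets are known for the ER stress response element (ERSE), in which a site for NF-Y and a site for ATF6 or XBP1 stand 9 bases apart, and for the compact ERSE-II. The RefSeq table (GRCm38.p6, the assembly known as mm10) held a 300-base window around the start site of all 10 genes, from 250 bases before it to 50 after. Letters were searched on both strands. ERSE, searched as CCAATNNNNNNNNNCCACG, was present in 39 of 32851 windows (0.1187%) and in 4 of the 10 members, Hspa5, Hsp90b1, Calr and Creld2. ERSE-II, searched as ATTGGNCCACG, was present in 12 windows (0.03653%) and in 1 member, Herpud1. With 1 mismatch allowed in ERSE, 1.504% of windows and 6 of the 10 members held it, Pdia4 and Herpud1 being added. CCACG alone, which is also the last part of ERSE and of ERSE-II, was present in 32.77% of windows and in 9 members, all but Xbp1, and the UPRE core TGACGTG in 2.012% and in Hspa5. A match of letters is a description and not evidence of binding.

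The 250 bases before the start site are shown for Hspa5 and Hsp90b1, which hold ERSE, for Herpud1, which holds ERSE-II, and for Dnajb9, which holds neither and was the member called with oxLDL 60 in Apoe-/- cells. Capitals mark ERSE, ERSE-II or, in Dnajb9, CCACG, read in either direction. All are 5′ to 3′ on the gene's own strand.
Hspa5 (chr2:34771840-34772089, plus strand): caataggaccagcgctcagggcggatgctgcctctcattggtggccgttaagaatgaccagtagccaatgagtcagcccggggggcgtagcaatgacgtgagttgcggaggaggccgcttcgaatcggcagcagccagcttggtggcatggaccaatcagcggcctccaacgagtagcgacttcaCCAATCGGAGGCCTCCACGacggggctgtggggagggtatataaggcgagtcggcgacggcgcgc
Hsp90b1 (chr10:86705445-86705694, minus strand): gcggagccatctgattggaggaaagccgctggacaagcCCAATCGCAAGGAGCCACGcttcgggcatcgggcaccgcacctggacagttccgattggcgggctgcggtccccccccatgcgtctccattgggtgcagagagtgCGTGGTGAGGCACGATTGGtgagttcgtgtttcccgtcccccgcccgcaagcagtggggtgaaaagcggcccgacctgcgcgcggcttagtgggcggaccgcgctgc
Herpud1 (chr8:94386179-94386428, plus strand): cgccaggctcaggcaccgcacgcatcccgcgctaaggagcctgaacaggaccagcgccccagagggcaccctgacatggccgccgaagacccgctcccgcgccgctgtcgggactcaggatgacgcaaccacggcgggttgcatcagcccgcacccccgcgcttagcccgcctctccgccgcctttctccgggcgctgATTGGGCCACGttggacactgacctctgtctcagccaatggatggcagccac
Dnajb9 (chr12:44210069-44210318, minus strand): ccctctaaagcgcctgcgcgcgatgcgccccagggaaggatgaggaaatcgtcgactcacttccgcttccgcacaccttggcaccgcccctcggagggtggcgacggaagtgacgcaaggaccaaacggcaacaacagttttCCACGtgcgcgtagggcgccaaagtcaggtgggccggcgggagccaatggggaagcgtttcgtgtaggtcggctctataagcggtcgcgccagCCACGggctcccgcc
Positions are those of the first base of a match on the gene's own strand. The ERSE of Hspa5 began 65 bases before the start site. Hsp90b1 held a pair of them, beginning 212 and 107 bases before it, the latter in the opposite direction. The ERSE-II of Herpud1 began 52 bases before the start site. In Calr and Creld2 the ERSE also ran in the opposite direction, and it is shown with 20 bases on either side.
Calr (chr8:84847055-84847113, minus strand): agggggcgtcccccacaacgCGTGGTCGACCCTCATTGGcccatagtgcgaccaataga
Creld2 (chr15:88819500-88819558, plus strand): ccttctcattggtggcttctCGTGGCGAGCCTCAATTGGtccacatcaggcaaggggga

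Depth, recovered from the steps in which low values rise, was 37.3 to 50.8 M reads per library, and the members rested on at least 896 reads per library, a counting error of at most 3.34%. Treml4 read at most 0.0116 RPKM in the DKO libraries, 8 of which were at 0, against 1.86 to 8.39 RPKM in Apoe-/- libraries, and Apoe read 0.349 to 4.13 RPKM in all 18. All 7 macrophage markers measured were present, while Cd79a and Ms4a1 of B cells, Ly6g of neutrophils, Cd3e of T cells and Flt3 of dendritic cells stayed under 0.1 RPKM. Other markers on those lists were detected. S100a8 and S100a9, of neutrophils and other myeloid cells, read 9.22 to 28.4 and 12.6 to 39.9 RPKM, and Mpo, of early myeloid cells, 0.745 to 1.55 RPKM. The 4 neutrophil markers summed to 24.1 to 38.0 RPKM in untreated Apoe-/- and 30.2 to 69.5 in untreated DKO libraries, and to 25.1 to 36.1 and 27.7 to 49.0 with oxLDL 60, and their part in the results was not tested. Lck, of T cells, Xcr1, of dendritic cells, and Jchain, of plasma cells, reached 0.354, 0.213 and 0.649 RPKM. Sdc1, a plasma cell marker that macrophages also make, read 13.5 to 35.7 RPKM, and Col1a2, of fibroblasts, reached 7.48 RPKM. The library Apoe-/- untreated replicate 1 stood apart: its values summed to 345768 RPKM against 375374 to 409034 in the others, and it held the lowest level of its group for all 10 members. The 6 libraries of one mouse per genotype, Apoe-/- replicate 2 and DKO replicate 3, held Xist RNA, which is made from an inactive X chromosome, at 7.25 to 14.5 RPKM against at most 0.0690 in the rest.

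RPKM are per length, so levels can be ordered between genes. Calr was the most abundant member, with a mean of 335 RPKM over the 18 libraries, followed by Hspa5 at 228 and Hsp90b1 at 204 RPKM. This order held in each of the 18 libraries. Sdf2l1 (63.4 RPKM) and Xbp1 (61.4 RPKM) did not differ beyond their spread, Sdf2l1 being the higher in 11 of 18 libraries. Pdia4 followed at 50.1, Edem1 at 44.4 and Creld2 at 30.2 RPKM, in that order in at least 17 of 18 libraries. Herpud1 (12.9 RPKM) and Dnajb9 (12.0 RPKM) stood lowest, and Herpud1 was the higher in 11 of 18 libraries. Dnajb9, Herpud1 and Xbp1 varied most. The highest library exceeded the lowest 1.87-fold for Dnajb9, 1.79-fold for Herpud1 and 1.53-fold for Xbp1, against 1.27-fold for Hspa5 and Calr.

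**Figure D1:**
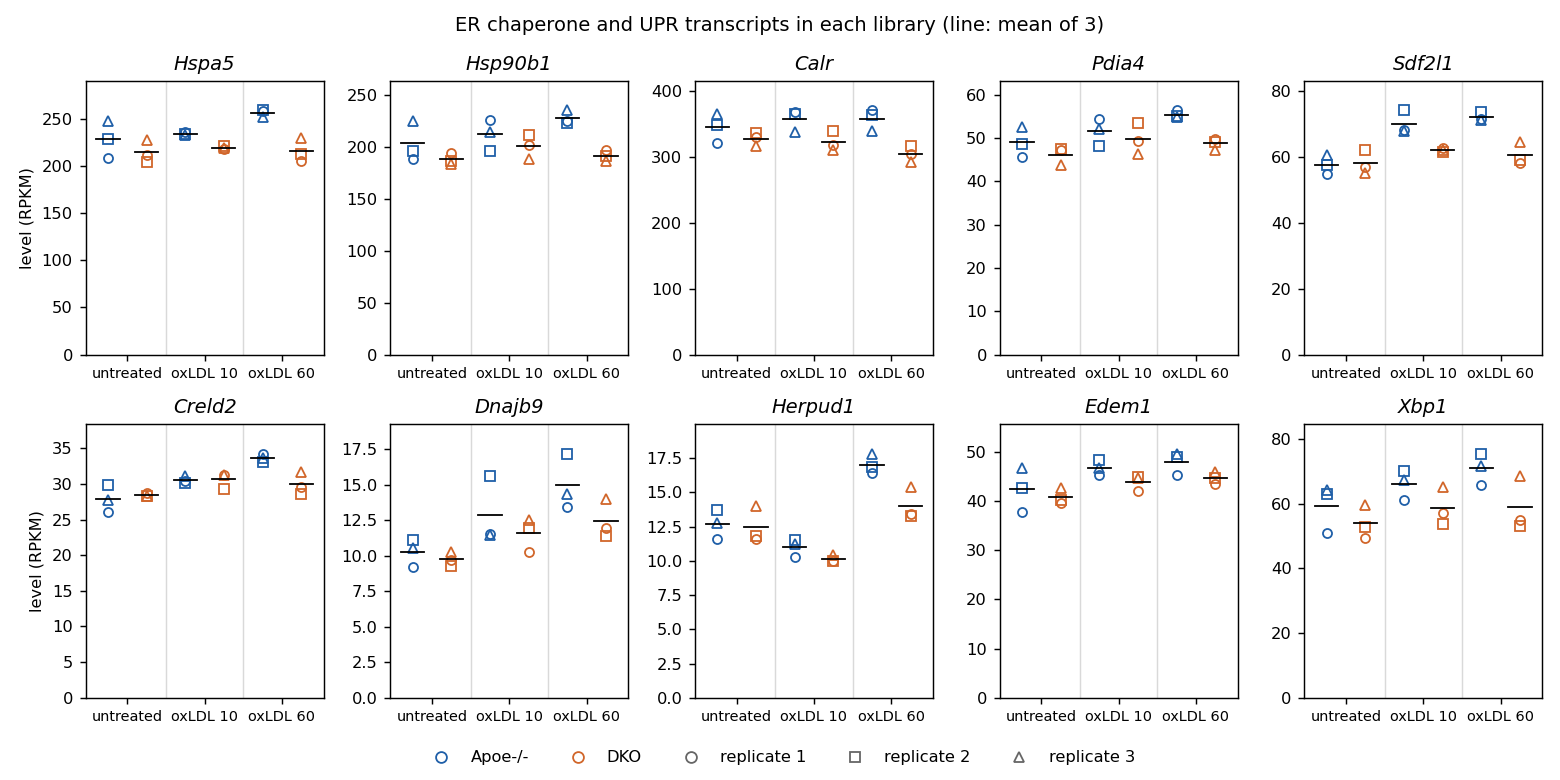
Level in RPKM (vertical axis, from 0) of each of the 10 genes in all 18 libraries, by treatment (horizontal axis, oxLDL in µg/ml); blue is Apoe-/-, orange is DKO, the marker shape gives the replicate number and the line the mean of 3 libraries. Herpud1 dips with oxLDL 10 and is highest with oxLDL 60 in both genotypes, and at oxLDL 60 the DKO libraries of 7 genes lie below all Apoe-/- libraries.

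Hspa5 encodes BiP, the ER Hsp70 that holds unfolded chains and keeps the sensors inactive. In Apoe-/- cells it read 209, 229 and 247 RPKM untreated, 236, 234 and 233 with oxLDL 10 and 258, 259 and 252 with oxLDL 60, in the order of replicates 1 to 3. In DKO cells it read 212, 205 and 228 untreated, 218, 221 and 219 with oxLDL 10 and 205, 212 and 230.1 with oxLDL 60. With oxLDL 60 all 3 Apoe-/- libraries lay above every other library of both genotypes, while in DKO the oxLDL 60 and untreated libraries overlapped. The mean went from 228 ± 19.3 to 256 ± 4.07 RPKM (SD, n = 3) in Apoe-/- and from 215 ± 11.8 to 216 ± 13.0 in DKO.

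Hsp90b1 (GRP94, the ER Hsp90, which folds Toll-like receptors and integrins), Calr (calreticulin, a lectin chaperone that also stores calcium) and Pdia4 (a disulfide isomerase) are chaperones and enzymes of the ER lumen. Their highest library exceeded the lowest 1.28-, 1.27- and 1.29-fold, near the 1.27-fold of Hspa5. Hsp90b1 had means of 204 ± 19.5, 212 ± 15.2 and 228 ± 6.61 RPKM in untreated, oxLDL 10 and oxLDL 60 Apoe-/- cells, and 188 ± 5.33, 201 ± 12.1 and 192 ± 5.35 in DKO. Calr had means of 344 ± 22.4, 356 ± 16.2 and 357 ± 16.0 RPKM in Apoe-/- and 327 ± 10.5, 322 ± 14.3 and 304 ± 11.9 in DKO, the only member whose DKO mean was lower with oxLDL 60 than without. Pdia4 had means of 49.0 ± 3.46, 51.6 ± 3.20 and 55.4 ± 0.889 RPKM in Apoe-/- and 46.2 ± 2.02, 49.7 ± 3.64 and 48.8 ± 1.32 in DKO. For these 3 genes the untreated Apoe-/- libraries spanned more than the step between the untreated and oxLDL 60 means.

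Sdf2l1, a partner of BiP and its J-domain helpers, read 54.9, 57.4 and 60.7 RPKM in untreated Apoe-/- cells, 68.2, 74.1 and 68.0 with oxLDL 10 and 71.4, 73.7 and 71.1 with oxLDL 60. In DKO cells it read 57.0, 62.2 and 55.1 untreated, 62.7, 61.6 and 62.2 with oxLDL 10 and 58.1, 59.0 and 64.6 with oxLDL 60. In Apoe-/- cells it was already higher with oxLDL 10, with little further at oxLDL 60, and in DKO the 3 conditions overlapped. Creld2, an ER protein made under ER stress, read 26.0, 29.8 and 27.7 RPKM in untreated and 34.2, 33.1 and 33.6 in oxLDL 60 Apoe-/- cells, without overlap. Its DKO libraries read 28.8, 28.3 and 28.3 untreated and 29.6, 28.6 and 31.7 with oxLDL 60, and these overlapped.

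Dnajb9 encodes ERdj4, a J-domain co-chaperone of BiP that also restrains IRE1. In Apoe-/- cells it read 9.20, 11.1 and 10.5 RPKM untreated, 11.5, 15.6 and 11.5 with oxLDL 10 and 13.4, 17.2 and 14.3 with oxLDL 60. In DKO cells it read 9.69, 9.28 and 10.3 untreated, 10.2, 11.9 and 12.5 with oxLDL 10 and 11.9, 11.4 and 14.0 with oxLDL 60. Every oxLDL 60 library of a genotype lay above every untreated one, and replicate 2 of Apoe-/- and replicate 3 of DKO were the highest of all 3 libraries in each of the 6 groups.

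Herpud1 encodes HERP, an ER membrane protein that assembles the ERAD machinery and is reached by more than one arm of the UPR. In Apoe-/- cells it read 11.6, 13.7 and 12.8 RPKM untreated, 10.3, 11.5 and 11.2 with oxLDL 10 and 16.4, 16.8 and 17.8 with oxLDL 60. In DKO cells it read 11.6, 11.8 and 14.0 untreated, 9.95, 9.96 and 10.4 with oxLDL 10 and 13.4, 13.3 and 15.4 with oxLDL 60. It was lowest with oxLDL 10 in both genotypes and highest with oxLDL 60, without overlap between the oxLDL amounts, though in DKO the untreated and oxLDL 60 libraries overlapped. Edem1, which takes misfolded glycoproteins to ERAD, had means of 42.4 ± 4.44, 46.8 ± 1.58 and 48.0 ± 2.32 RPKM in Apoe-/- and 40.8 ± 1.66, 44.0 ± 1.58 and 44.7 ± 1.19 in DKO.

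Xbp1, the transcription factor downstream of IRE1, read 51.0, 63.0 and 64.3 RPKM in untreated Apoe-/- cells, 61.1, 70.0 and 67.4 with oxLDL 10 and 65.9, 75.6 and 71.6 with oxLDL 60. In DKO cells it read 49.5, 52.9 and 59.5 untreated, 57.3, 53.7 and 65.1 with oxLDL 10 and 55.0, 53.1 and 68.6 with oxLDL 60. Replicate 3 of DKO was the highest of its group in all 3 conditions. Of the 6 groups, the Xist-positive library was the highest in 6 for Dnajb9 and in 5 for Xbp1 and Herpud1, and the lowest in 5 for Hsp90b1 and in 4 for Pdia4. With 1 such mouse per genotype, its sex and the mouse itself cannot be told apart.

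With oxLDL 60, all 10 members had a positive log2 fold change in Apoe-/- cells, from 0.06 for Calr to 0.54 for Dnajb9, and their median of 0.22 stood beside 0.06 over all genes tested. Without Apoe-/- untreated replicate 1 the range was 0.00 to 0.46 and the median 0.14, beside 0.02 over all genes. A gene was called at an adjusted p under 0.05 with a fold of at least 1.4. By this rule 1 of 10 members was called, Dnajb9, which rose 1.45-fold (log2 0.54, SE 0.124, adjusted p = 0.00325), and 13.9% of all genes were called. Without Apoe-/- untreated replicate 1 its log2 fold change was 0.46 (adjusted p = 0.02095) and without Apoe-/- oxLDL 60 replicate 2 it was 0.43 (adjusted p = 0.0230), both under the fold limit, which left 0 members called. At an adjusted p under 0.05 with no fold limit, 6 of 10 members passed, against 30.2% of all genes. Beside Dnajb9 these were Herpud1 at log2 0.43 (SE 0.082, adjusted p = 7.76e-04), Sdf2l1 at 0.32 (SE 0.059, adjusted p = 4.86e-04), Creld2 at 0.27 (SE 0.055, adjusted p = 0.00102), Edem1 at 0.18 (SE 0.067, adjusted p = 0.0473) and Pdia4 at 0.18 (SE 0.065, adjusted p = 0.0486). Edem1 and Pdia4 were no longer among them without Apoe-/- untreated replicate 1, at adjusted p = 0.219 and 0.179, which left 4. Hspa5 at 0.17 (SE 0.063, adjusted p = 0.0538), Xbp1 at 0.26 (SE 0.110, adjusted p = 0.0848), Hsp90b1 at 0.17 (SE 0.071, adjusted p = 0.0878) and Calr at 0.06 (SE 0.063, adjusted p = 0.556) did not pass. The 3 libraries with oxLDL 60 all lay above the 3 untreated ones for 7 of 10 members, as they did for 25.8% of all genes, the exceptions being Hsp90b1, Calr and Edem1. With 3 libraries against 3, an exact two-sided permutation test of a single gene cannot go below p = 0.1. With the mouse as a replicate block, which pairs the libraries of one mouse, 9 of 10 members passed without a fold limit, all but Calr, and Dnajb9 remained called. After rescaling libraries by the median ratio of their genes 5 passed and 0 were called, with a median of 0.16. The shares of all genes that passed in these alternative fits are not given here. The 30.2% is that of the main fit and cannot be set beside their counts.

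In DKO cells the same treatment left 9 of 10 members with a positive log2 fold change, with a median of 0.08 beside -0.06 over all genes tested. Without DKO oxLDL 60 replicate 3 the median was 0.04 and 8 were positive. In limma 0 members were called and 0 passed without a fold limit, against 12.2% and 25.9% of all genes. An unadjusted p under 0.05 was found for 1 member and for 4631 of 12838 genes. That member was Dnajb9, at 1.27-fold (95% interval 1.06 to 1.52, log2 0.35, SE 0.124, adjusted p = 0.0505). Herpud1 followed at 1.13-fold (95% interval 0.997 to 1.27, adjusted p = 0.149). For Hspa5 the fold was 1.00 with a 95% interval of 0.915 to 1.10, and for Sdf2l1 it was 1.04 with an interval of 0.956 to 1.14. The oxLDL 60 libraries all lay above the untreated ones for 2 members, Dnajb9 and Edem1, as they did for 14.3% of all genes. With the replicate block 2 members passed without a fold limit, Dnajb9 (adjusted p = 0.00119) and Herpud1 (adjusted p = 0.0322), and none reached the fold limit. After rescaling by the median ratio 3 passed without a fold limit, Dnajb9, Pdia4 and Edem1 (adjusted p = 0.0327, 0.0109 and 0.0264), and the median was 0.14, near that in Apoe-/- on the same scale. The shares of all genes under the block and after rescaling are not given here, and the 25.9% is that of the main fit. In these bulk samples, fewer cells of a type and less RNA per cell cannot be told apart. The summed macrophage markers, mostly Lyz2, were at 5458 to 7042 RPKM with oxLDL 60 in DKO, against 8058 to 10530 untreated. In Apoe-/- these sums were 6423 to 8353 RPKM with oxLDL 60, against 8614 to 11352 untreated. The part of this difference in the values of the members was not tested.

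**Figure D2:**
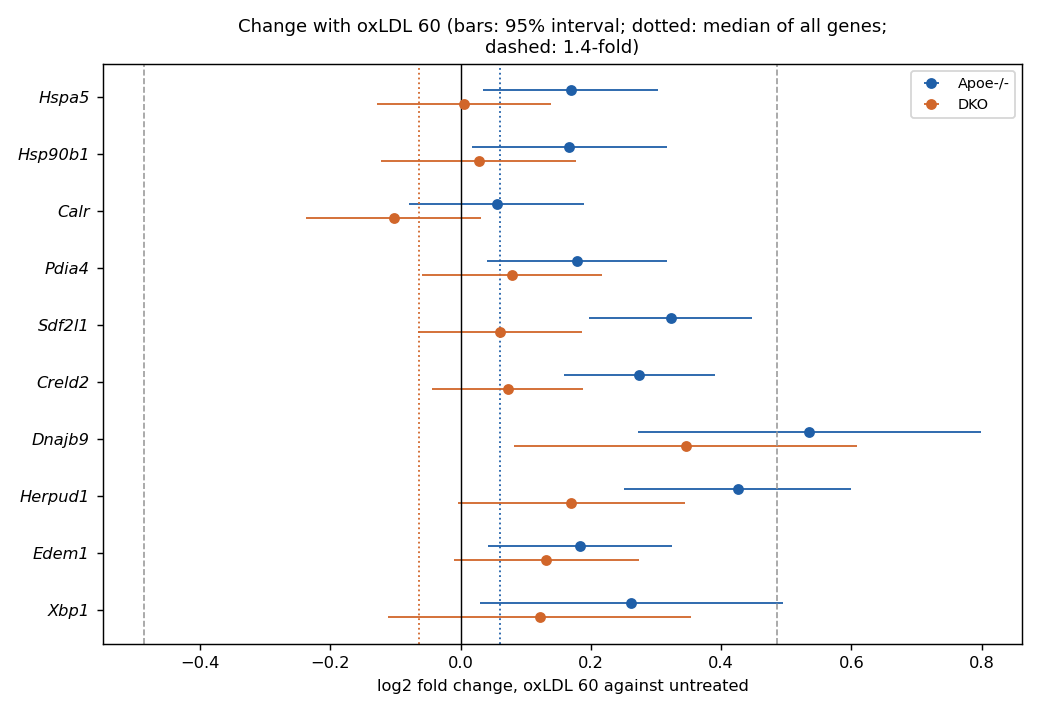
Log2 fold change of oxLDL 60 against untreated cells (horizontal axis) for each of the 10 genes (vertical axis) in Apoe-/- (blue) and DKO (orange); bars are 95% intervals from limma, dotted lines the medians of all genes and dashed lines a 1.4-fold change. Dnajb9 and Herpud1 lie farthest right in both genotypes, and only Dnajb9 in Apoe-/- lies past the 1.4-fold line.

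The response to oxLDL 60 was set against that of the other genotype in an interaction term. All 10 differences were negative, that is, smaller in DKO, with a median of -0.16 on the log2 scale beside -0.11 over all genes tested. In limma 0 of 10 members were called, against 0.0156% of all genes. Of 12838 genes 1256 had an unadjusted p under 0.05, as did 3 members. These members were Sdf2l1 at -0.26 (SE 0.084, adjusted p = 0.507), Creld2 at -0.20 (SE 0.078, adjusted p = 0.507) and Herpud1 at -0.26 (SE 0.117, adjusted p = 0.509). After rescaling by the median ratio, the median of all genes moved by 0.13 to 0.01, that of the members became -0.03, and 8 of 10 members stayed negative. Without Apoe-/- untreated replicate 1 the median was -0.10, beside -0.07 over all genes, and 9 of 10 were negative. A smaller response of the members in DKO was therefore not shown.

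With oxLDL 10 no member reached the fold limit, and Herpud1 was below untreated. Dnajb9 rose most, 1.24-fold in Apoe-/- (log2 0.31) and 1.18-fold in DKO (log2 0.24). In Apoe-/- the libraries lay without overlap above untreated for 3 members and below for 1, as for 14.3% and 6.16% of all genes. In DKO they did so for 1 and 1, as for 10% and 8.9%. In Apoe-/- cells 0 of 10 members were called in limma and 1 passed without a fold limit, against 2.79% and 7.04% of all genes. The member that passed was Sdf2l1, at 1.22-fold (log2 0.28, SE 0.059, adjusted p = 0.00827). An unadjusted p under 0.05 was found for 5 members and for 2871 of 12838 genes. Without Apoe-/- untreated replicate 1 Sdf2l1 was at log2 0.25 (adjusted p = 0.0273). Herpud1 was at 0.871-fold (log2 -0.20, SE 0.082, adjusted p = 0.163), below untreated in each of 3 mice. In DKO cells 0 were called and 0 passed without a fold limit, against 2.26% and 3.97% of all genes. Of 12838 genes 1692 had an unadjusted p under 0.05, as did 1 member. That member was Herpud1, at 0.815-fold (log2 -0.29, SE 0.082, adjusted p = 0.0563), again below untreated in each of 3 mice. With the replicate block Herpud1 passed without a fold limit in both genotypes (adjusted p = 0.0291 in Apoe-/- and 0.00330 in DKO), as did Dnajb9 (adjusted p = 0.00749 and 0.0460). The share of all genes that passed with the block is not given here. For the interaction with oxLDL 10, limma called 0 members and 0% of all genes, and 1 member, Sdf2l1, had an unadjusted p under 0.05 (-0.18, SE 0.084, adjusted p = 1.000). Over all genes 246 had an unadjusted p under 0.05.

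Between the oxLDL amounts, Herpud1 was the member that changed. In Apoe-/- cells it rose 1.54-fold from oxLDL 10 to oxLDL 60 (log2 0.63, SE 0.082, adjusted p = 6.07e-05), the 1 member called and the 1 that passed without a fold limit, against 6.46% and 13.5% of all genes. It was called in all 15 alternatives run for this comparison. In DKO cells the fold was 1.38 (log2 0.46, SE 0.082, adjusted p = 9.19e-04), just under the limit of 1.4, so that 0 members were called and 1 passed without a fold limit, against 5.66% and 15.6% of all genes. In DKO it reached the fold limit after rescaling by the median ratio (log2 0.56, adjusted p = 0.000667) and without DKO oxLDL 10 replicate 3, DKO oxLDL 60 replicate 1 or DKO oxLDL 60 replicate 2 (log2 0.49, 0.50 and 0.50). The other 9 members had log2 differences of 0.00 for Calr to 0.22 for Dnajb9 in Apoe-/-, and of -0.08 for Calr to 0.11 for Dnajb9 in DKO, with adjusted p of 0.104 or more.

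The comparison of DKO with Apoe-/- sets the genotypes against each other at one treatment. Per the study, the double mutants came from a cross and were then intercrossed. Loss of Treml4 therefore cannot be told apart from other differences between the lines or the mice. At oxLDL 60 all 10 members were lower in DKO, by log2 -0.10 for Edem1 to -0.28 for Herpud1, with a median of -0.25 beside -0.02 over all genes tested. In limma 0 of 10 were called, against 0.125% of all genes, with adjusted p from 0.186 for Sdf2l1 to 0.722 for Edem1. An unadjusted p under 0.05 was found for 8 members and for 1011 of 12838 genes. Hspa5 was at 0.841-fold (95% interval 0.766 to 0.923, adjusted p = 0.239), Sdf2l1 at 0.840-fold (0.770 to 0.916, adjusted p = 0.186) and Herpud1 at 0.823-fold (0.729 to 0.929, adjusted p = 0.368). These intervals are for single genes and are not adjusted. The 3 DKO libraries all lay below the 3 Apoe-/- libraries for 7 of 10 members, Hspa5, Hsp90b1, Calr, Pdia4, Sdf2l1, Creld2 and Herpud1, as they did for 12% of all genes. Xbp1, Dnajb9 and Edem1 overlapped, each through DKO replicate 3. After rescaling by the median ratio the median of the members was -0.21 and all 10 stayed lower, with 0 called and the smallest adjusted p at 0.0974, and without the Xist-positive libraries the median was -0.25, also with 0 called.

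In untreated cells 8 of 10 members were lower in DKO, with a median of -0.07 beside 0.09 over all genes tested, and 0 were called in limma, none with an unadjusted p under 0.05, against 0.21% of all genes called. With oxLDL 10, 9 of 10 were lower, with a median of -0.11 beside 0.05, and 0 were called, against 0.0857% of all genes. The 2 with an unadjusted p under 0.05 were Sdf2l1 and Calr. Over all 12838 genes, 2225 untreated and 1252 with oxLDL 10 had an unadjusted p under 0.05. Sdf2l1 was at 1.01-fold untreated, 0.887-fold with oxLDL 10 and 0.840-fold with oxLDL 60, and Hspa5 at 0.942-, 0.937- and 0.841-fold. After rescaling by the median ratio, which moved the median of all genes by up to 0.09 in these comparisons, all 10 members were lower in DKO untreated (median -0.17) and with oxLDL 10 (median -0.16), again with 0 called. Single libraries moved the untreated difference as well. Its median was -0.13 with all 10 lower without Apoe-/- untreated replicate 1, -0.03 with 7 lower without Apoe-/- untreated replicate 3, and -0.05 with 8 lower without DKO untreated replicate 2.

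**Figure D3:**
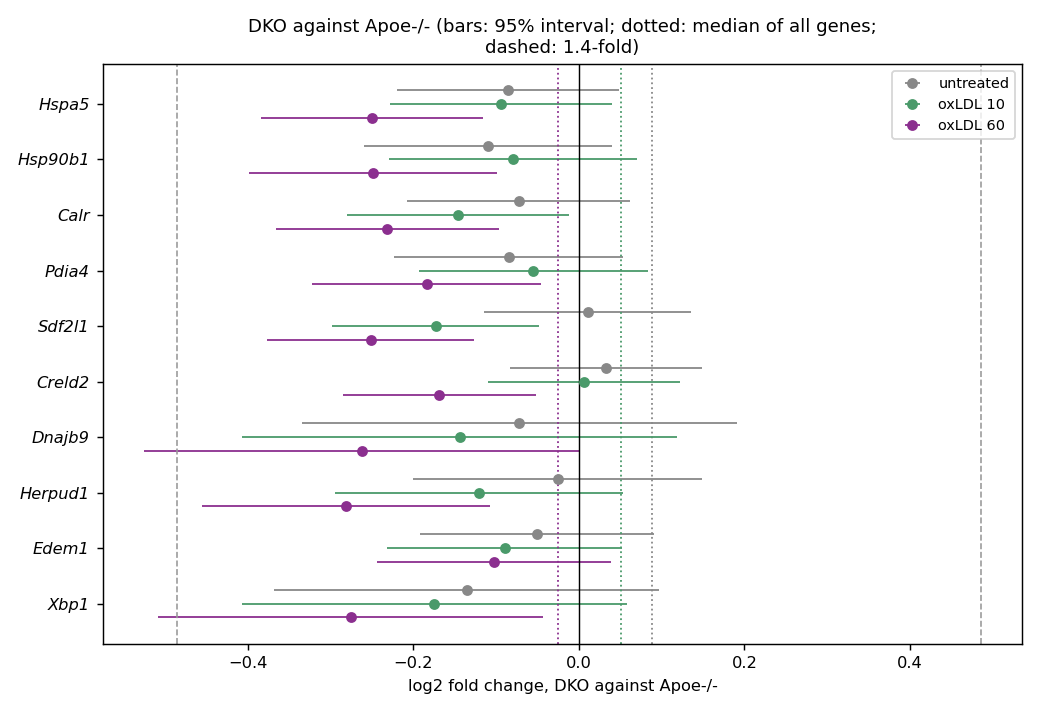
Log2 fold change of DKO against Apoe-/- (horizontal axis) for each of the 10 genes (vertical axis) in untreated cells (grey), with oxLDL 10 (green) and with oxLDL 60 (purple); bars are 95% intervals from limma, dotted lines the medians of all genes and dashed lines a 1.4-fold change. All 10 purple points lie left of 0, between -0.28 and -0.10, and none passes the 1.4-fold line.

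Other genes of the ER and the UPR were taken from lists fixed by function. Of 17 other ER chaperones and folding enzymes, 0 were called with oxLDL 60 in either genotype, and 7 in Apoe-/- and 0 in DKO passed without a fold limit, all higher. Over all genes 13.9% and 12.2% were called and 30.2% and 25.9% passed without a fold limit, in Apoe-/- and DKO. The medians of these chaperones were 0.17 in Apoe-/- and 0.00 in DKO, beside 0.22 and 0.08 for the 10 members. The disulfide isomerase Pdia6 was at 89.6 ± 1.05 RPKM in DKO and 111 ± 3.17 in Apoe-/- with oxLDL 60 (log2 -0.31, SE 0.058, adjusted p = 0.0446), the 1 gene of these lists that passed between genotypes without a fold limit, and it was chosen after its value was seen. Of 17 ERAD genes 5 in Apoe-/- and 2 in DKO passed without a fold limit, and 1 was called in each genotype, Edem2, a relative of Edem1, at log2 0.78 (SE 0.083, adjusted p = 1.63e-06) in Apoe-/- and 0.57 (SE 0.083, adjusted p = 5.44e-05) in DKO. Of 17 genes of ER entry and vesicle traffic 6 and 2 passed without a fold limit, and 1 was called in each, Mcfd2, a cargo receptor subunit, at 0.73 (SE 0.070, adjusted p = 4.96e-07) and 0.52 (SE 0.070, adjusted p = 2.69e-05). Lower levels in DKO at oxLDL 60 were not particular to the 10 members, whose median was -0.25. The other chaperones, ERAD genes and traffic genes had medians of -0.17, -0.05 and -0.12, beside -0.02 over all genes. Of each 17, 1, 2 and 0 were higher in DKO.

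Of the 6 sensors and their activating proteases 0 were called with oxLDL 60 in either genotype, against 13.9% and 12.2% of all genes. Without a fold limit 2 passed in Apoe-/- and 1 in DKO, near the 30.2% and 25.9% of all genes. Ern1, which encodes IRE1, was at log2 0.28 (SE 0.077, adjusted p = 0.0101) in Apoe-/- and 0.32 (SE 0.077, adjusted p = 0.00519) in DKO with oxLDL 60, past the adjusted p in both and under the fold limit. Eif2ak3, which encodes PERK, was at 0.23 (SE 0.079, adjusted p = 0.0398) and 0.19 (SE 0.079, adjusted p = 0.0846). Without Apoe-/- untreated replicate 1 neither passed in Apoe-/-, Ern1 at log2 0.21 (adjusted p = 0.0510) and Eif2ak3 at 0.17 (adjusted p = 0.148). Atf6 was at 0.02 (SE 0.074, adjusted p = 0.870) and -0.07 (SE 0.074, adjusted p = 0.554), and its sign in Apoe-/- turned without Apoe-/- untreated replicate 1 (-0.07), without Apoe-/- oxLDL 60 replicate 3 (-0.02) and after rescaling (-0.04).

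The remaining list, the PERK arm, holds genes placed downstream of PERK and ATF4. RNA levels do not show whether PERK was active, and what changed these genes was not tested. Of 9 listed, 7 were called higher with oxLDL 60 in each genotype, and 0 with oxLDL 10. Over all genes 13.9% in Apoe-/- and 12.2% in DKO were called either way with oxLDL 60, and 2.79% and 2.26% with oxLDL 10. Trib3, a pseudokinase induced by ATF4 and CHOP, read 2.22, 1.87 and 2.08 RPKM in untreated and 10.7, 8.06 and 10.4 in oxLDL 60 Apoe-/- cells (log2 2.18, SE 0.300, adjusted p = 2.93e-05). In DKO it read 4.12, 4.49 and 1.94 untreated and 15.3, 14.3 and 9.07 with oxLDL 60 (log2 1.90, SE 0.300, adjusted p = 1.35e-04). The libraries did not overlap in either genotype. Chac1, which breaks down glutathione, was at 1.93 (SE 0.305, adjusted p = 1.24e-04) and 1.93 (SE 0.305, adjusted p = 1.31e-04), and Ddit3, which encodes CHOP, at 1.20 (SE 0.226, adjusted p = 6.26e-04) and 0.98 (SE 0.226, adjusted p = 0.00355). The list had a median of 1.01 in Apoe-/- and 0.85 in DKO, against 0.22 and 0.08 for the 10 chaperone and XBP1 or ATF6 targets. Between genotypes at oxLDL 60, 8 of 9 were higher in DKO, with a median of 0.18. None of the 9 was called there or in the interaction with oxLDL 60, and over all genes only 0.125% and 0.0156% were. Without the Xist-positive libraries, a fit with fewer libraries in each group, 1 was called between genotypes at oxLDL 60. The share of all genes called in that fit is not given here. In DKO the count of 7 was 5 without DKO oxLDL 60 replicate 1 or 2.

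**Figure D4:**
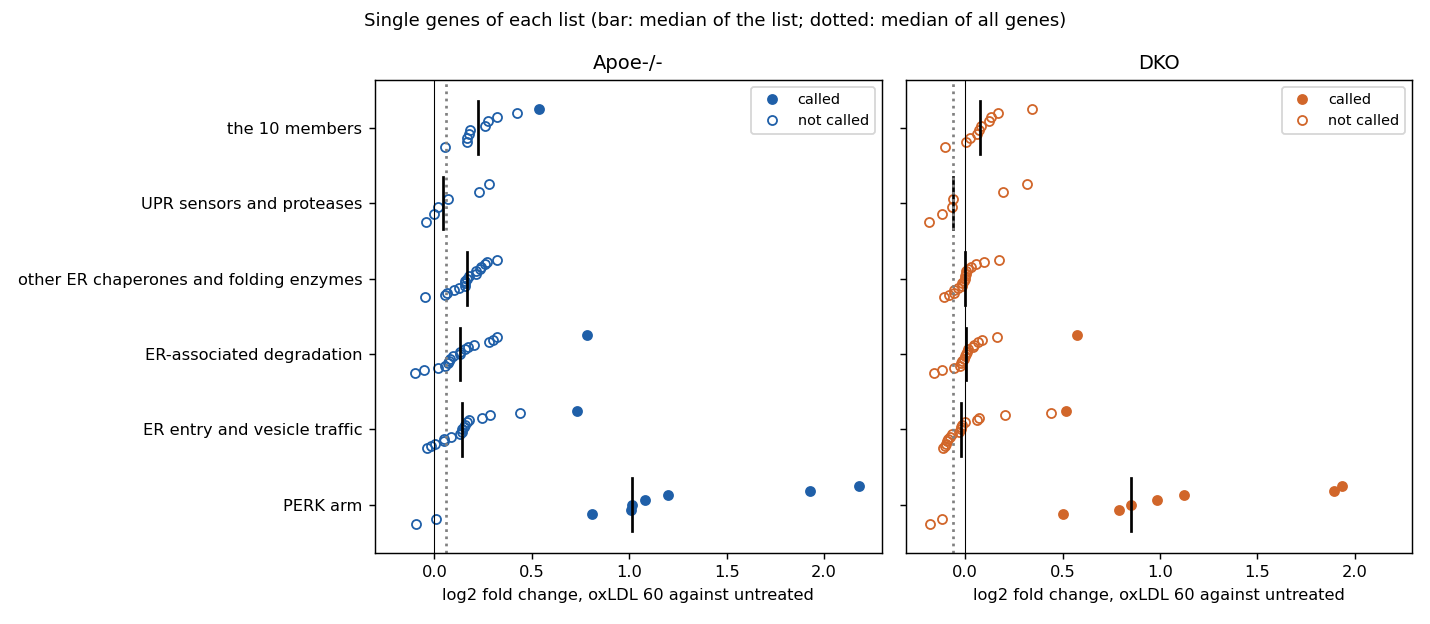
Log2 fold change of oxLDL 60 against untreated cells (horizontal axis) for every gene of the 10 members and of 5 other ER and UPR lists (vertical axis) in Apoe-/- (left) and DKO (right); filled points are genes called, bars the list medians and the dotted line the median of all genes. In each genotype 7 of 9 PERK-arm genes are filled, up to 2.18 for Trib3, while the 10 members lie between -0.10 and 0.54.

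Across the 18 libraries the members followed one another to differing degrees. The Pearson correlation of a member with the mean of the other 9, on standardized log2 values, was 0.89 for Hspa5, 0.84 for Sdf2l1 and Edem1 and 0.81 for Xbp1, and lowest for Herpud1 (0.45) and Calr (0.53). The closest pair was Pdia4 and Hsp90b1 (0.94), which were both lowest in DKO untreated replicate 3. The genes outside the list most like the mean of the 10 members were Crat (0.94), a carnitine acetyltransferase, Yipf5 (0.94), a protein of ER to Golgi traffic, G6pdx (0.92), which opens the pentose phosphate pathway, Pdia6 (0.92) and Rnf13 (0.92), a ubiquitin ligase. These correlations are descriptions over 18 libraries that share treatments, mice and library scaling, with no test.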

How the data were processed

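Total RNA of BMDM was made into 18 libraries, grouped and numbered as labelled. For its RNA-seq the study's methods describe stranded libraries with poly(A) selection. Per the labels, reads were aligned with STAR to mm10 (version and annotation not given in the sources used here). The study's methods add an earlier ELAND alignment turned back into reads, and the labels name differing sequencers and read lengths. The authors deposited RPKM for 18668 symbols, 24 of them turned into dates. The study's own lists came from a count model, which RPKM do not allow, so limma 3.58.1 in R 4.3.3 was used on log2(RPKM + 0.1), with the study's limits on adjusted p and fold. Changes of low genes are understated on this scale. The 12838 genes at 0.1 RPKM or more in at least 3 libraries were fitted with 1 mean for each of the 6 groups (lmFit, eBayes with a trend), and p was adjusted by Benjamini-Hochberg over all genes within each of 11 comparisons.

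Depth came from the steps of low values: 97.4% of 5290 such values were whole to within 0.05 of a step, and GENCODE M21 lengths, found for 97.3% of symbols, set the scale. It is approximate and covers counting error only. Deviations from the group means correlated in each of 18 same-numbered pairs of one genotype (0.18 to 0.69, median 0.41; other numbers, median -0.35), so the number was taken to mark the mouse. Across genotypes same-numbered libraries had a median of -0.17 and share only a number. The replicate block gives each mouse its own level. The fit was tested on simulated data. Plots and motifs used Python 3.11.15, numpy 2.4.6, pandas 2.3.3 and matplotlib 3.10.9.

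The members, the other gene lists and the tests were chosen with earlier results of these data known. The genes named are the 10 members, the sensors Ern1, Atf6 and Eif2ak3, up to 3 called genes each way with the largest fold at oxLDL 60 in each other list, the 5 genes most like the members, and Treml4 and Apoe. Alternatives were another pseudocount, other filters, rescaling by the median ratio over 9585 genes above 1 RPKM, fits of the compared groups only, the replicate block, a term for or removal of Xist-positive libraries, no fold limit, and leaving out each library. The replicate block with rescaling was added after seeing the data.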

Additional observations from a re-analysis of the deposited data

How the results depend on the processing

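Of the 11 counts of members called, 8 were the same in every alternative run. The count for oxLDL 60 in Apoe-/- was 1 (Dnajb9) and became 0 after rescaling by the median ratio, 0 with the replicate block and rescaling together, 2 without the Xist-positive libraries (Herpud1 being added), 6 with no fold limit, and 0 to 1 when single libraries were left out. The count for oxLDL 60 against oxLDL 10 in DKO was 0 and became 1 (Herpud1) after rescaling, with no fold limit and with the replicate block and rescaling together, and 0 to 1 when single libraries were left out. The count for oxLDL 10 in Apoe-/- went from 0 to 1 with no fold limit. The replicate block alone, which pairs libraries of one mouse, changed no call, and gave counts of 1 for oxLDL 60 in Apoe-/- and 0 in DKO. Among the genes rerun singly, signs turned for 4 values near 0. Calr with oxLDL 60 in Apoe-/- was -0.01055 after rescaling, with and without the block, and Atf6 was -0.04484 in both. With single libraries left out Atf6 was -0.06804 to 0.1025 there, below 0 without untreated replicate 1 or oxLDL 60 replicate 3. Hspa5 with oxLDL 60 in DKO was -0.04198 to 0.04805 with single libraries left out, below 0 without untreated replicate 1 or 2 or oxLDL 60 replicate 3, and Sdf2l1 there was -0.02352 without the Xist-positive libraries. The causes were not tested. Of 11 comparisons, those between genotypes and the interactions had 0 members called in every alternative run.

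Most differences of the members were under 1.4-fold, so the fold limit leaves them uncalled whatever their p. The counting error of the members was at most 3.34%, and whether depth limits the calls was not tested. The block changed no other call, and a block on the number across genotypes left 0 members called. In fits without 1 library of a group, the remaining libraries are assumed to vary like those of the other groups.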

Other observations

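Of the genes of the PERK-arm list, Ddit3, Trib3 and Asns were lower in 1 of the 3 untreated DKO libraries. Ddit3 read 22.2, 21.8 and 13.0 RPKM in untreated DKO replicates 1 to 3, 29.3, 29.9 and 16.5 with oxLDL 10 and 41.3, 43.8 and 27.3 with oxLDL 60, so that replicate 3 was the lowest of its group in each condition. Apoe-/- libraries read 11.1, 12.7 and 13.2 RPKM untreated and 31.9, 26.9 and 26.4 with oxLDL 60, near DKO replicate 3. Trib3 read 4.12, 4.49 and 1.94 RPKM and Asns, which makes asparagine and is driven by ATF4, 57.7, 57.8 and 35.4 RPKM in the same untreated DKO libraries. Replicate 3 of DKO is also the library with the highest Xbp1 and Dnajb9 of each DKO group and holds Xist RNA. In Apoe-/-, the mouse with Xist RNA (replicate 2) had the lowest Asns in each condition, at 29.8 RPKM untreated and 56.6 RPKM with oxLDL 60. Its Trib3 was also the lowest in each condition. Its Ddit3 lay between those of the other mice in each condition. Ppp1r15a, of the same list, was highest in this mouse in each condition, at 7.73 RPKM untreated and 14.7 with oxLDL 60. These genes were chosen after their values were seen, and no test was made between mice.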
